A study of Homo sapiens with 21 samples.

Results

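The ABCA transporters are a subfamily of ATP-binding cassette proteins, and 10 of their genes were followed here through the culture life of BJ cells and after doxorubicin: ABCA1, ABCA2, ABCA3, ABCA5, ABCA6, ABCA7, ABCA8, ABCA9, ABCA10 and ABCA13. They were chosen by gene name from a table of 61544 genes, which holds 12 protein-coding ABCA genes, and all 10 passed the filter on low counts that left 16821 genes for testing. The choice was made with count differences between these same groups already seen. Which of those differences weighed, and any cut-off, is not recorded, so the adjusted p-values below describe the genes and are not independent support. The other two protein-coding ABCA genes, ABCA4 and ABCA12, are given in the closing observations.

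BJ is an established line of human skin fibroblasts that has not been immortalised, so it stops dividing after many passages. By the labels' protocol, poly(A) RNA was sequenced, although another label field names the material as genomic DNA. The libraries came from untreated BJ cells at passage 3, 11, 24, 30 and 33 (P3 to P33) and from P11 cells that received either doxorubicin at 50 ng/ml (DOX) or the solvent DMSO, with 3 libraries in each of the 7 groups. Doxorubicin is a drug that damages DNA by trapping topoisomerase II, and the study's title sets replicative senescence beside the senescence it induces. How long DOX was given is not stated in the labels. Nor do these say whether the 3 libraries of a group came from separate cultures, and the p-values rest on a spread between libraries that may be technical.

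ABCA proteins are large membrane pumps with a pair of transmembrane domains, and most members that have been studied move phospholipids or cholesterol across or out of a membrane. ABCA1 hands cholesterol and phospholipid to apolipoprotein A-I at the cell surface, and its gene is a classic target of LXR, a nuclear receptor that senses oxidised sterols. ABCA2 and ABCA5 lie in late endosomes and lysosomes, ABCA3 loads surfactant lipid into lamellar bodies of the lung, and ABCA7 is a close relative of ABCA1 known from microglia and Alzheimer disease. ABCA5, ABCA6, ABCA8, ABCA9 and ABCA10 stand side by side on chromosome 17 and have less well defined substrates. ABCA13 is a very large member of the family.

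The upstream sequence of 5 of the 10 genes is shown here as background. Their levels moved partly alike and partly apart, and no link between sequence and level was tested. Each run is the 200 bases before a start site in RefSeq (GRCh38.p14), 5′ to 3′ on the gene's own strand, and 9 of the 10 genes were matched in that table. Capitals mark matches, on either strand, to the E-box CACGTG, the forkhead motif TGTTTAC, the TATA box TATAAA or a loosened LXR element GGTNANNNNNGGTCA.
ABCA1 (chr9:104928156-104928355, minus strand): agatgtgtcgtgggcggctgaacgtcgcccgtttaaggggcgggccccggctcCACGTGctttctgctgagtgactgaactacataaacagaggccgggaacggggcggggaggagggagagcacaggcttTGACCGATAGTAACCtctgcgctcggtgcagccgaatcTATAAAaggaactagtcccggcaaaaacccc
ABCA9 (chr17:69060928-69061127, minus strand): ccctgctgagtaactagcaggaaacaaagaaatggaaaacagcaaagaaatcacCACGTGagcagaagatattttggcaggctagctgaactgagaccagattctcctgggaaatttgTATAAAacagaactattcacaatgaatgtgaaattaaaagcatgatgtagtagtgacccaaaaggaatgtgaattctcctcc
ABCA6 (chr17:69141896-69142095, minus strand): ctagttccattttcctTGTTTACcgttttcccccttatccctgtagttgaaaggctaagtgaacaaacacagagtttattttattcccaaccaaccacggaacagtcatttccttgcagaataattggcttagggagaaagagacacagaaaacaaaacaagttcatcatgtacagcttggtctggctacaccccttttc
ABCA3 (chr16:2340729-2340928, minus strand): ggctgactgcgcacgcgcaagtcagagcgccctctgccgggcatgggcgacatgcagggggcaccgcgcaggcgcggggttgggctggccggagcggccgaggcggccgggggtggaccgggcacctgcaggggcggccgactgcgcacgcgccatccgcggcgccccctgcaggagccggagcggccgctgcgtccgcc
ABCA5 (chr17:69327134-69327333, minus strand): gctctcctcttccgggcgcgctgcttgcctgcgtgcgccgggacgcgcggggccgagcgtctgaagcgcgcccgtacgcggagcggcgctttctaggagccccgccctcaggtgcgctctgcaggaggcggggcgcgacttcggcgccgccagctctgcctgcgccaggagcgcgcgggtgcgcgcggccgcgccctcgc
The ABCA1 window held an E-box 147 bases before the start, the loosened LXR element at 69 bases on the reverse strand, and a TATA box at 31 bases. Among 35116 windows of the same length, the LXR pattern was present in 0.174%, the E-box in 5.493%, TATAAA in 8.589% and the forkhead motif in 2.315%. The ABCA9 window held an E-box at 146 bases and TATAAA at 82 bases, and the ABCA6 window the forkhead motif at 184 bases. None of these letters occurred in the ABCA3 and ABCA5 windows, which are instead rich in G and C (80.0% and 78.5%, against 41.0% for ABCA6, 39.5% for ABCA9 and a median of 59.0% over all windows). ABCA10, at one of its starts, had the lowest share among the matched genes, 25.5%. A match is a string of letters and was not tested as a binding site.

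In the coordinates of the count table (hg38), ABCA1 spans chr9:104781006-104928155 and ABCA2 chr9:137007234-137028915, both on the minus strand. ABCA3 lies at chr16:2275881-2340746 (minus), ABCA7 at chr19:1039997-1065572 (plus) and ABCA13 at chr7:48171458-48647497 (plus). The chromosome 17 cluster runs, all on the minus strand, from ABCA8 (chr17:68867289-68955392) over ABCA9 (chr17:68974488-69060949), ABCA6 (chr17:69078702-69141895) and ABCA10 (chr17:69147214-69244846) to ABCA5 (chr17:69244311-69327244). ABCA10 and ABCA5 overlap by 536 bases on the same strand, and the antisense gene ABCA9-AS1 overlaps ABCA8 by 10862 bases and ABCA9 by 68297 bases. The cluster genes are related copies, and no source used here gives how reads with several matches, overlaps and strand were handled, so a part of the reads of these 5 genes could be assigned to a neighbour.

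Library totals ran from 12946375 to 27194352 counts. The passage libraries and the DOX and DMSO libraries were not counted alike: 9427 genes are contained in a longer gene of the same strand, and reads were assigned to 0 of them in the 15 passage libraries but to 3949 in the libraries of DOX or DMSO cells. No ABCA gene studied here lies inside another, but levels are compared only within each of these parts of the table, and across them only effects are compared. All 11 fibroblast markers passed the filter. Their summed level was 14408.5 to 16462.1 CPM (read counts scaled to a common library total) at P33, 18960.4 to 25824.4 CPM at the other passages and 40732.7 to 44351.2 CPM in the other libraries. Markers of immune and vessel lining cells were low: 0.687 to 1.58 CPM summed for macrophages and leukocytes and 2.79 to 6.35 CPM for endothelium in passage libraries, with 0.822 to 2.41 and 2.29 to 4.42 CPM in the DOX and DMSO libraries. Melanocyte and adipocyte markers summed to at most 1.00163 and 1.44221 CPM in any library. The smooth muscle and pericyte list summed to 66.1 to 69.0 CPM at P33, 106 to 169 CPM at the other passages and 42.9 to 52.1 CPM with DOX or DMSO. The keratinocyte list, of which 3 of 7 genes passed, summed to 163 to 183, 264 to 401 and 336 to 442 CPM. Most of this sum was DSP, with a mean of 302 CPM at P3 and 151 CPM at P33. Most of the smooth muscle and pericyte sum was CSPG4, with 159 CPM at P3 and 61.5 CPM at P33. The P33 libraries thus lay below all other passage libraries in the fibroblast, smooth muscle and keratinocyte sums. A second fibroblast list, of 10 genes with 8 tested, went the other way. It summed to 1554.64 to 1752.1 CPM at P33 and 1267.06 to 1552.4 CPM at the other passages. Against P3, 4 of the 11 fibroblast markers were higher and 6 lower, and 4 and 3 on the second list. The keratinocyte list had 2 higher and 1 lower, and the smooth muscle list 0 and 2. The part of these shifts in the ABCA values at P33 was not tested. The keratinocyte keratin KRT5 had 0 reads in every library, where 3 reads over all 21 libraries would be 0.0071 CPM. In RNA from whole cultures, a smaller number of expressing cells and less RNA per cell cannot be told apart.

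Per kilobase of exon, ABCA1 was the most abundant of the 10 transcripts at P3, with 5.385 CPM per kb, followed by ABCA2 with 3.2 and ABCA5 with 1.735. ABCA7 stood at 0.6026, and the other six lay between 0.02823 (ABCA13) and 0.287 CPM per kb (ABCA8). The DMSO libraries also had ABCA1 first (14.16 CPM per kb), then ABCA5 (8.741) and ABCA2 (2.76). Exon lengths came from GENCODE version 29, and reads from introns may be included. In raw counts, ABCA1 had 996 to 2561 reads per passage library, while ABCA13 had 8 to 51, so the precision for ABCA13 was the lowest of the family.

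ABCA1, the sterol exporter, rose and fell in turn over the passages. Its level was 64.8, 58.5 and 60.0 CPM in the P3 libraries, 105, 94.2 and 99.6 CPM at P11, 56.7, 56.1 and 53.1 CPM at P24, 128, 135 and 128 CPM at P30, and 99.2, 99.7 and 109 CPM at P33. The P30 libraries were the highest and did not overlap any other passage, and P3 and P24 were the lowest. Each step passed the test: 1.63-fold higher at P11 than at P3 (log2 0.71, edgeR adjusted p = 1.02e-10), 1.80-fold lower from P11 to P24 (1.89e-12), 2.36-fold higher from P24 to P30 (1.59e-16) and 1.27-fold lower from P30 to P33 (2.21e-05). In the order P24, P3, P11, P33, P30, the neighbours P24 and P3 (edgeR adjusted p = 0.0568) and P11 and P33 (0.600) did not pass the test. At P33 ABCA1 remained 1.68-fold above P3 (log2 0.75, SE 0.0627, edgeR adjusted p = 3.07e-12).

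**Figure D1:**
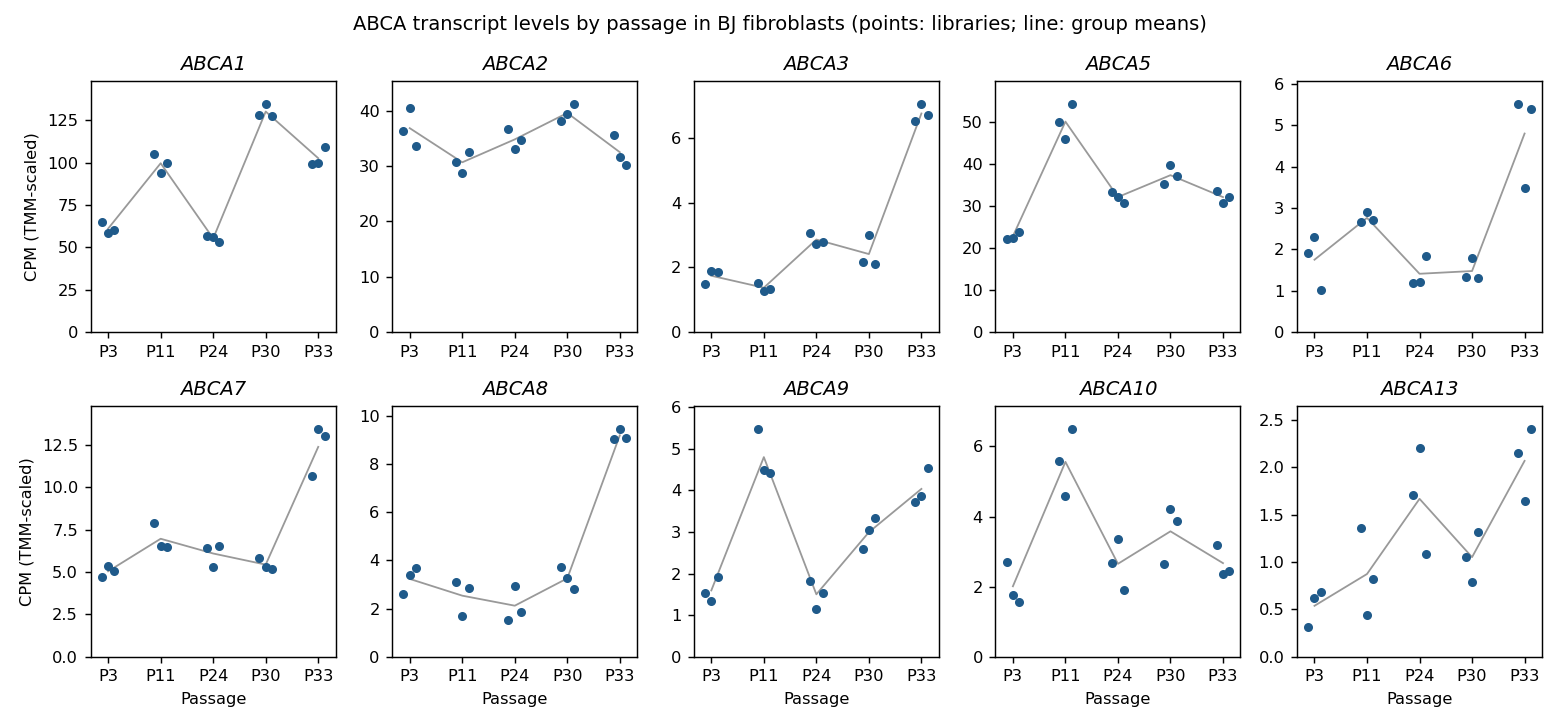
CPM after TMM scaling (y axis, from 0 in each panel) of the 10 ABCA genes at each passage (x axis); points are libraries and lines join the group means. ABCA1 alternates between about 55.3 and 130 CPM, and ABCA3, ABCA6, ABCA7 and ABCA8 have their highest 3 libraries at P33.

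Of the late endosomal and lysosomal members, ABCA2 changed little and ABCA5 peaked at P11. ABCA2 had the narrowest range of the family, with means from 30.7 CPM (SD 1.9, n = 3) at P11 to 39.6 CPM (SD 1.6) at P30, a 1.29-fold span, and no neighbours in its order P11, P33, P24, P3, P30 passed the test. Its P33 libraries (35.7, 31.6 and 30.2 CPM) overlapped those of P3 (36.3, 40.6 and 33.7 CPM). The drop by 0.18 on the log2 scale was called with an edgeR adjusted p of 0.0203, but DESeq2 gave 0.0509 and leaving out P3 replicate 2 (0.18), P33 replicate 2 (0.111) or the third P33 library (0.183) ended the call. ABCA5 rose from 22.2, 22.3 and 23.9 CPM at P3 to 49.98, 45.9 and 54.3 CPM at P11, the highest of its passage levels. It then lay between 30.7 and 39.7 CPM in all 9 later libraries, every one of them above P3 and below P11. At P33 ABCA5 was 1.41-fold above P3 (log2 0.50, SE 0.0671, edgeR adjusted p = 8.86e-08), and P24 and P33 did not pass the test against each other.

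ABCA3, the lamellar body transporter, showed its largest rise at the end of the series. The libraries gave 1.48, 1.89 and 1.86 CPM at P3, 1.51, 1.28 and 1.33 at P11, 3.07, 2.73 and 2.79 at P24, 2.15, 2.999 and 2.09 at P30 and 6.53, 7.06 and 6.70 CPM at P33. All P33 libraries lay above every other passage library, 3.88-fold over P3 (log2 1.96, SE 0.152, edgeR adjusted p = 4.84e-13) and 2.75-fold over P30 (1.59e-09). A first rise of 2.07-fold fell between P11 and P24 (6.44e-05). ABCA7, the relative of ABCA1, had 10.7, 13.5 and 13.02 CPM at P33, above all earlier libraries, which lay between 4.72 and 7.89 CPM. It was 2.45-fold higher at P33 than at P3 (log2 1.29, SE 0.11, edgeR adjusted p = 4.28e-12), and P3, P30, P24 and P11, in this order, were not separated between neighbours.

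The genes of the chromosome 17 cluster did not share one course. ABCA8 had 2.61, 3.39 and 3.68 CPM at P3, stayed between 1.54 and 3.70 CPM through P30, and reached 9.01, 9.46 and 9.06 CPM at P33. Its rise from P30 to P33 was 2.79-fold (edgeR adjusted p = 2.06e-08), and P33 was 2.86-fold above P3 (log2 1.52, SE 0.165, 1.06e-09). ABCA6 likewise had its highest libraries at P33, 5.52, 3.48 and 5.4 CPM against 1.91, 2.31 and 1.03 CPM at P3. That was 2.67-fold (log2 1.42, SE 0.199, edgeR adjusted p = 1.71e-07). It had also risen 1.54-fold at P11 (0.0244), a call that was lost without P3 replicate 3 (0.163) or P11 replicate 2 (0.0757), and fallen 1.92-fold by P24 (0.00324).

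ABCA9 and ABCA10 peaked early instead. ABCA9 went from 1.52, 1.35 and 1.91 CPM at P3 to 5.48, 4.48 and 4.42 CPM at P11, back to 1.82, 1.16 and 1.52 CPM at P24, and up again to 2.60, 3.05 and 3.33 CPM at P30 and 3.71, 3.86 and 4.53 CPM at P33. The P11 and P33 libraries overlapped and did not pass the test against each other (edgeR adjusted p = 0.141), whereas each differed from P3, by 3.05-fold (3.56e-09) and 2.55-fold (2.86e-08). ABCA10 rose from 2.69, 1.77 and 1.57 CPM at P3 to 5.59, 4.58 and 6.51 CPM at P11, a 2.70-fold change (edgeR adjusted p = 3.26e-07), and fell 2.104-fold by P24 (4.69e-05). With 3.20, 2.35 and 2.46 CPM at P33 it overlapped P3, and the log2 difference of 0.40 (95% interval -0.06 to 0.86) was not called (edgeR adjusted p = 0.101), although it was without P3 replicate 1 (log2 0.69, 0.0121). ABCA13, with few reads, had 0.312, 0.616 and 0.687 CPM at P3 and 2.15, 1.65 and 2.41 CPM at P33, a rise of 3.88-fold (log2 1.96, SE 0.324, edgeR adjusted p = 3.10e-06) for which no neighbouring passages in its order differed.

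Counted over the family, 8 of the 10 genes were higher and 1 was lower at P33 than at P3, and their median log2 change was 1.32 against 0 over all tested genes. The background was broad: 34.5% of all tested genes were called higher and 33.3% lower in this comparison. Of the 16821 tested genes, 684 had reads only in the DOX and DMSO libraries and could not be called among passages, and over the other 16137 the shares were 35.9% and 34.7% and the median 0.03. From P3 to P11, 6 were higher and 1 lower (background 22.9% and 23.6%). From P11 to P24, 3 were higher and 5 lower (16.0% and 17.7%), though ABCA2 and ABCA13 each lost the call in 4 fits that left out 1 library. From P24 to P30, 5 were higher and edgeR called 0 lower (18.0% and 17.1%). At an unadjusted p under 0.05, 1 was lower, and DESeq2 called 0 lower. Of the 5, the ABCA2 call was lost with DESeq2 and without any one of 4 libraries, and the ABCA8 call without any one of 4 libraries. From P30 to P33, 6 were higher and 3 lower (23.6% and 24.8%). ABCA1, ABCA5 and ABCA9 were called up, down and up over the first 3 steps, although the third step of ABCA5 was not called without P24 replicate 3 (edgeR adjusted p = 0.0591) or P30 replicate 2 (0.0893), and ABCA6 and ABCA10 had the same signs with the third step not called. Against P3 itself, P24 had 3 genes higher (ABCA3, ABCA5 and ABCA13) and 1 lower (ABCA8), beside 26.6% and 27.8% of all tested genes. The ABCA8 call was lost without P3 replicate 2 (edgeR adjusted p = 0.0550) or 3 (0.0695), or P24 replicate 1 (0.111) or 3 (0.0868). P30 had 6 higher (ABCA1, ABCA3, ABCA5, ABCA9, ABCA10 and ABCA13) beside 29.0%, and 0 lower beside 29.6% by edgeR, by DESeq2 and at an unadjusted p under 0.05. The count higher at P30 ranged from 4 to 6 without 1 library. ABCA3 lost the call without P3 replicate 1 (edgeR adjusted p = 0.120) or P30 replicate 2 (0.275), and also with no filter on low counts (0.0905). ABCA13 lost it without P3 replicate 1 (0.192), P30 replicate 1 (0.0922) or P30 replicate 3 (0.140). Over the last step ABCA3, ABCA6, ABCA7, ABCA8, ABCA9 and ABCA13 rose while ABCA1, ABCA2 and ABCA5 fell. Of these calls, ABCA9 was lost without P30 replicate 1 (edgeR adjusted p = 0.147), P30 replicate 2 (0.0567) or P33 replicate 3 (0.109), ABCA13 without P30 replicate 2 (0.0583), and ABCA5 without P30 replicate 2 (0.0631) or P33 replicate 2 (0.0643).

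**Figure D2:**
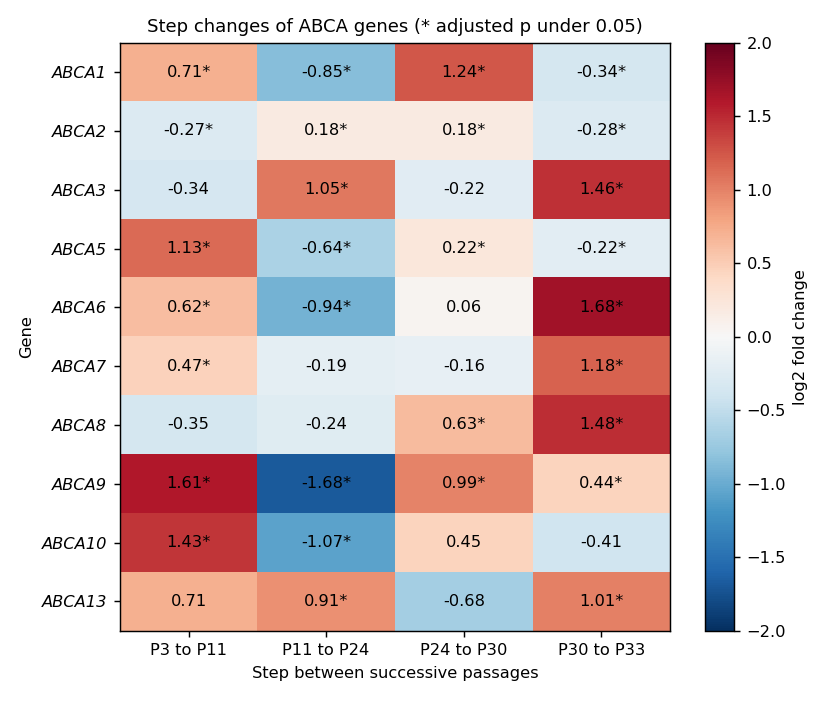
The log2 fold change (colour and printed value) of each ABCA gene (rows) over each step between successive passages (columns), with an asterisk where the edgeR adjusted p was under 0.05. The P11 to P24 column is negative and called for ABCA1, ABCA5, ABCA6, ABCA9 and ABCA10. The P30 to P33 column holds the highest value of each of ABCA3, ABCA6, ABCA7, ABCA8 and ABCA13.

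Across the 15 passage libraries, the pairs of family members with the highest Pearson r of log2 CPM were ABCA5 with ABCA10 (0.887), ABCA6 with ABCA7 (0.809) and ABCA1 with ABCA9 (0.799), and the lowest was ABCA2 with ABCA7 (-0.527). These are descriptions: libraries of 1 passage share their group, and ABCA5 and ABCA10 share the overlap named above. Among 11966 coding genes, those most like ABCA3 were PLAT, the tissue plasminogen activator (r = 0.965), PLCB1, a phospholipase C (0.963), and GUCY1A2, a subunit of soluble guanylate cyclase (0.963). Those most like ABCA8 were EIF1B (0.953), RAD51C, a homologous recombination factor (0.938), and SGTB (0.933). For ABCA13 they were PRR15 (0.937), ZFP14 (0.905) and URGCP (0.896).

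In P11 cells given DOX, 6 of the 10 genes were higher than with DMSO, 2 were lower and 2 were not called, beside 16.7% higher and 20.6% lower among all tested genes. The median log2 change was 0.34 for the family and -0.01 over all genes. ABCA1 was at 161, 169 and 152 CPM with DMSO and 201, 176 and 206 CPM with DOX, without overlap, a 1.21-fold rise (log2 0.28, SE 0.0599, edgeR adjusted p = 0.000369). ABCA2 went from 32.3, 32.2 and 30.9 CPM to 43.6, 39.9 and 42.3 CPM, 1.32-fold (log2 0.40, SE 0.0703, 2.27e-05). All DOX libraries of both genes lay above all DMSO libraries. How many of all tested genes lacked overlap was not counted. Statements on overlap, here and elsewhere, thus describe the libraries and add no support to the calls. ABCA5 had 120, 116 and 109 CPM with DMSO and 108, 109 and 105 CPM with DOX, and its log2 difference of -0.10 (95% interval -0.22 to 0.02) was not called (edgeR adjusted p = 0.186).

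ABCA7 rose 1.502-fold with DOX, from 9.13 ± 0.39 to 13.7 ± 1.1 CPM (SD, n = 3; edgeR adjusted p = 2.51e-05). ABCA13 rose 1.87-fold, from 2.93, 2.36 and 2.29 CPM to 4.84, 3.66 and 5.86 CPM (log2 0.90, SE 0.221, edgeR adjusted p = 0.00135). In both, the groups did not overlap. ABCA3 went from 1.31, 1.76 and 1.995 CPM to 2.26, 2.66 and 2.50 CPM, 1.48-fold (edgeR adjusted p = 0.0179), but without the filter on low counts the value was 0.0527, and without DMSO replicate 1 it was 0.168 and without DOX replicate 2 0.0592. ABCA3 had few reads, 29 to 56 per library.

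Within the cluster, ABCA6 fell and ABCA8 rose. ABCA6 had 17.9, 18.7 and 14.6 CPM with DMSO and 7.79, 6.67 and 7.24 CPM with DOX, 2.36-fold lower (log2 -1.24, SE 0.14, edgeR adjusted p = 9.39e-09). ABCA9 fell from 7.84, 7.94 and 6.69 CPM to 5.45, 5.87 and 4.69 CPM, 1.40-fold (log2 -0.49, SE 0.133, 0.00362). ABCA8, next to ABCA9, rose from 2.21, 3.64 and 2.52 CPM to 5.08, 4.52 and 4.33 CPM, 1.70-fold (log2 0.76, SE 0.196, 0.00219). In none of these 3 genes did the DOX and DMSO libraries overlap. ABCA10 had 7.12, 6.85 and 7.86 CPM with DMSO and 5.85, 5.67 and 4.99 CPM with DOX, also without overlap, and its log2 difference of -0.40 (SE 0.162) had an edgeR adjusted p of 0.0527, with 0.0207 when no filter was set and 0.0279 when the DOX and DMSO libraries were fitted alone.

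**Figure D3:**
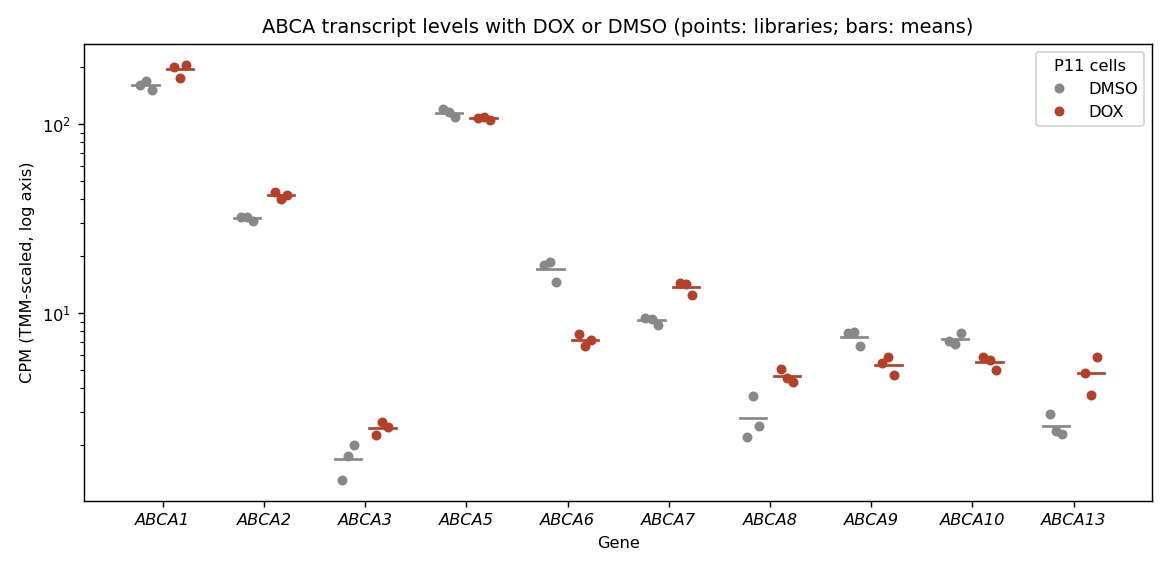
CPM after TMM scaling (y axis, log scale) of the 10 ABCA genes (x axis) in P11 cells with DMSO (grey) or DOX (red); points are the 3 libraries of a group and bars the group means. ABCA6 drops from 17.1 to 7.23 CPM while ABCA13 climbs from 2.53 to 4.79 CPM, and the ABCA5 groups lie close together.

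The effect of DOX against DMSO and that of P33 against P3, which share no libraries, were tested against each other in the same edgeR fit. With P3 as the baseline, the difference passed for all 10 genes. The DOX effect was the lower one for 9 and the higher one for ABCA2. Among all tested genes, 25.8% had a higher and 25.4% a lower DOX effect. ABCA1, ABCA3, ABCA7, ABCA8 and ABCA13 were called higher in both settings, with a smaller rise after DOX: the difference was -0.47 (SE 0.0866, edgeR adjusted p = 2.77e-05) for ABCA1, -1.39 (0.25, 2.13e-05) for ABCA3 and -0.70 (0.152, 0.000228) for ABCA7. For ABCA8 (-0.75, SE 0.261, 0.0164) the call was lost without P3 replicate 1 (0.0567) or DMSO replicate 2 (0.115). For ABCA13 (-1.05, SE 0.404, 0.0295) it was lost without P3 replicate 1 (0.137), P33 replicate 1 (0.0528), P33 replicate 3 (0.0686), DOX replicate 2 (0.0606) or DMSO replicate 1 (0.0835).

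ABCA6 and ABCA9 went opposite ways, up at P33 against P3 and down with DOX. The differences were -2.66 (SE 0.243, edgeR adjusted p = 7.05e-11) and -1.84 (SE 0.218, 1.56e-08). ABCA2 was lower at P33, within the limits given above, and higher with DOX, a difference of 0.58 (SE 0.0985, 8.11e-06). ABCA5 was called higher at P33 against P3 but was not called with DOX, and the difference of its effects was -0.59 (SE 0.0883, 1.00e-06). ABCA10 was called in neither setting, yet its effects differed by -0.80 (SE 0.269, 0.0136), a call lost without P33 replicate 1 (0.0732). The DOX and DMSO cells were at P11. Against P11, ABCA3, ABCA6, ABCA7, ABCA8 and ABCA13 were higher at P33. ABCA5 (log2 -0.64, edgeR adjusted p = 3.80e-10) and ABCA10 (-1.03, 2.06e-05) were lower. ABCA1 (0.04, 0.600), ABCA2 (0.09, 0.308) and ABCA9 (-0.26, 0.141) were not called. The DOX effect was not tested against this P11 baseline.

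**Figure D4:**
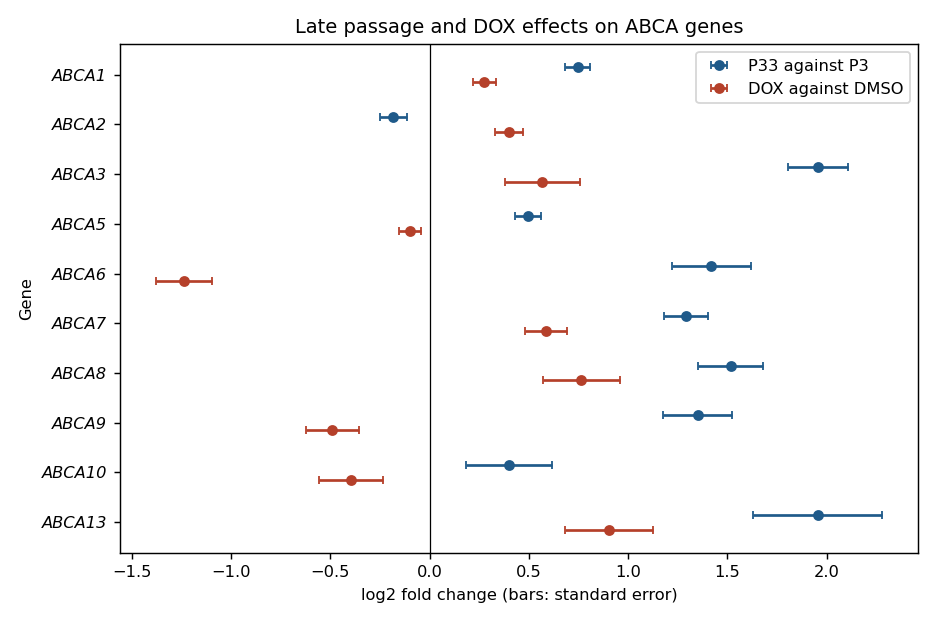
The log2 fold change (x axis) of each ABCA gene (y axis) for P33 against P3 (blue) and DOX against DMSO (red), with bars of 1 standard error. ABCA6 and ABCA9 lie right of 0 in blue and left of 0 in red, and the red points of the other genes except ABCA2 sit left of the blue ones.

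Within 500 kb of the chromosome 17 cluster the table holds 28 rows, of which 8 outside the family passed the filter. One of them, MIR635, was at 0 reads at every passage, and 5 of the other 7 were higher at P33 than at P3 and 1 was lower. Of all tested genes with passage reads, 35.9% were higher and 34.7% lower in this comparison. MAP2K6, the kinase that activates p38 and the next tested gene beyond ABCA5, rose from 3.74 to 10.3 CPM (log2 1.45, edgeR adjusted p = 5.38e-14). On the other side the long noncoding RNA LINC01482 rose by a log2 of 1.75, the sulfatase gene ARSG by 0.63 and FAM20A, which acts with a secretory pathway kinase, by 0.56, while PRKAR1A, a regulatory subunit of protein kinase A, was at -0.00. With DOX 1 neighbour was higher (FAM20A, log2 0.17) and 1 lower (WIPI1, an autophagy factor, log2 -0.50). Of all tested genes, 16.7% were higher and 20.6% lower with DOX.

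**Figure D5:**
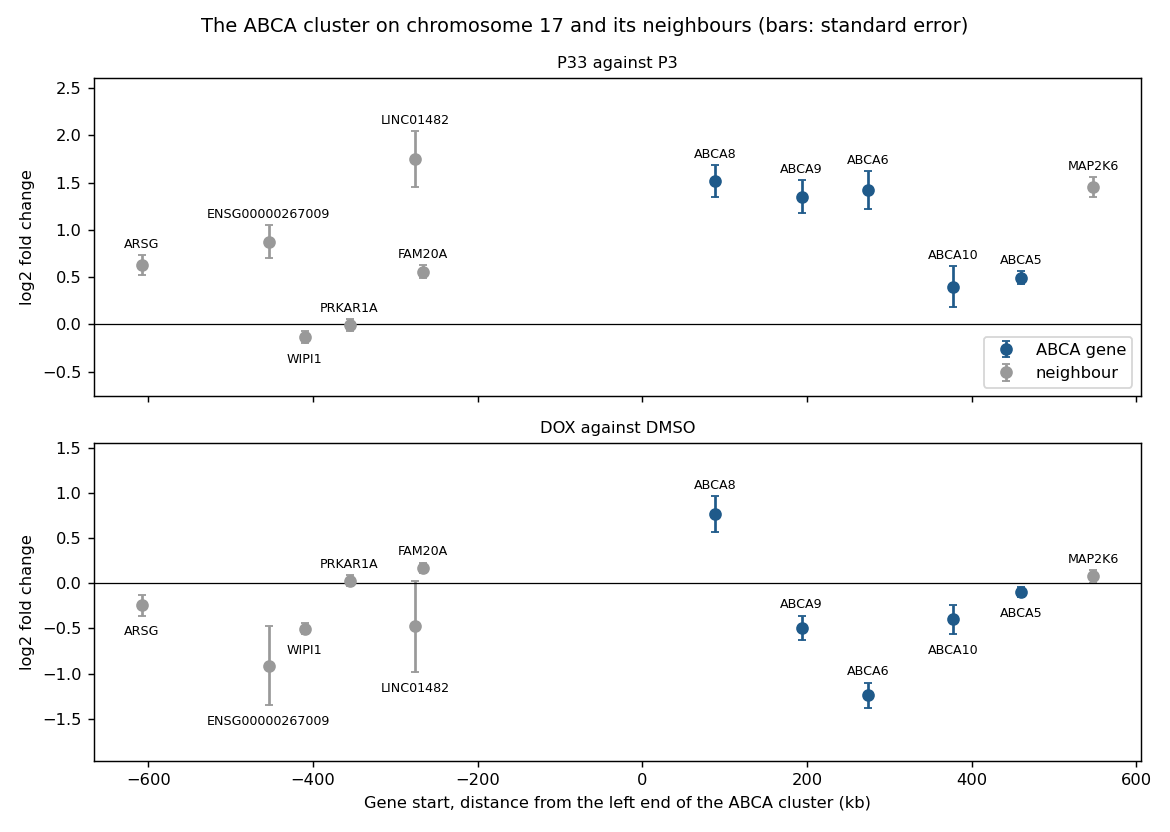
The log2 fold change (y axis, bars of 1 standard error) of the 5 cluster genes (blue) and of 7 tested neighbours (grey) against the distance of each gene's start from the left end of the cluster in kb (x axis), for P33 against P3 (top) and DOX against DMSO (bottom). ABCA8, ABCA9 and ABCA6 lie between 1.35 and 1.52 at P33 and between -1.24 and 0.76 with DOX.

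Other genes of cholesterol export were more often lower than higher at P24, P30 and P33 against P3 and with DOX, but not at P11. ABCA1 was higher at P11, P30 and P33 and with DOX, and not called at P24. Of all tested genes, 34.5% were higher and 33.3% lower at P33 against P3, and 16.7% and 20.6% with DOX. At P11 the shares were 22.9% and 23.6%, at P24 26.6% and 27.8% and at P30 29.0% and 29.6%. These shares stand beside all list counts from here on. Of 9 tested efflux genes and LXR targets, 1 was higher and 6 were lower at P33 than at P3 (median log2 -0.44). At P11, 3 were higher and 1 lower than at P3 (median 0.17). At P24, 2 were higher and 5 lower than at P3 (median -0.29), and at P30 3 and 6 (median -0.30). From P11 to P24, where ABCA1 fell, 5 were lower, beside 17.7% of all tested genes. Over that step edgeR called 0 higher, as did DESeq2 and the unadjusted p under 0.05, beside 16.0% of all tested genes. The gene higher at P33 than at P3 was ABCG1, which exports sterol to mature lipoproteins, from 0.114 to 4.003 CPM (34.3-fold, edgeR adjusted p = 5.87e-13). APOE, a lipid-carrying apolipoprotein, fell from 9.92 to 2.36 CPM. With DOX 7 of the 9 were lower (median -0.93) and edgeR called 0 higher, as did DESeq2, also with 0 at an unadjusted p under 0.05. APOE fell from 24.95 to 10.6 CPM and MYLIP, which marks the LDL receptor for degradation, from 30.6 to 10.6 CPM. ABCG1 had a log2 change of -0.04 with DOX (edgeR adjusted p = 0.947).

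Of 18 tested nuclear receptors and transcription factors of lipid export, 4 were higher and 10 lower at P33 (median -0.20). Beside them stand 34.5% and 33.3% of all tested genes. NR1H3, which encodes LXR alpha, went from 7.06 to 4.54 CPM, PPARG from 30.1 to 18.9 CPM, and FOXO1 from 0.644 to 1.16 CPM. With DOX 8 of the 18 were lower by edgeR (median -0.09). By edgeR, by DESeq2 and at an unadjusted p under 0.05, 0 were higher. The largest drops were in SREBF1 (log2 -0.81), PPARGC1A (-0.75) and PPARG (-0.63). NR1H3 was lower too (log2 -0.36, edgeR adjusted p = 0.0118). NR1H2, the other LXR gene, was not called (log2 -0.03, edgeR adjusted p = 0.760). With DMSO it stood at 40.2 CPM, against 12.9 CPM for NR1H3. Cholesterol synthesis genes were lower in both settings, 17 of the 21 with reads in passage libraries at P33 (median -0.78) and 17 of 22 with DOX (median -0.49), and in both edgeR called 0 higher, as did DESeq2 and the unadjusted p under 0.05. At P11, where ABCA1 was above P3, 18 of these 21 were higher than at P3 and 1 was lower (median 0.47). At P30, where ABCA1 was 2.13-fold above P3, 19 of the 21 were lower (median -0.71) and edgeR called 0 higher, with 1 higher at an unadjusted p under 0.05 and 0 by DESeq2. INSIG1, which holds the SREBP sterol sensor in the endoplasmic reticulum, was 2.58-fold lower at P33 and 2.1-fold lower with DOX.

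Among 17 genes of lipoprotein uptake and lysosomal lipid export, 5 were higher and 9 lower at P33, beside 34.5% and 33.3% of all tested genes. The scavenger receptors CD36 (4.67 to 16.6 CPM) and MSR1 (0.723 to 5.404 CPM) rose, and LIPA, the lysosomal acid lipase, fell from 214 to 87.1 CPM. With DOX 3 were higher and 7 lower, with NPC1, the lysosomal cholesterol exporter, going from 202 to 80.1 CPM and the oxidised LDL receptor OLR1 up 5.36-fold. Of 19 phospholipid flippases and scramblases, 6 were higher and 6 lower at P33, near the shares of all tested genes. With DOX, 3 were higher and 7 lower. Of the transporters of the other ABC subfamilies, 13 were higher and 9 lower at P33 among the 27 with reads in passage libraries, and 7 higher and 4 lower with DOX among 28. ABCB1, the multidrug pump, rose 87.6-fold at P33 and 3.74-fold with DOX. All 8 proliferation markers fell in both settings (MKI67 from 510 to 153 CPM at P33 and from 151 to 8.70 CPM with DOX). They did not fall throughout. All 8 were lower at P30 than at P24, beside 17.1% of all tested genes. All 8 were higher at P33 than at P30, beside 23.6%. Over that last step ABCA3, ABCA6, ABCA7, ABCA8, ABCA9 and ABCA13 were called higher and ABCA1, ABCA2 and ABCA5 lower, within the limits given above. The part of cell division in the ABCA values was not tested.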

How the data were processed

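Gene counts of poly(A) RNA from 21 BJ libraries (7 groups of 3) were used. The authors deposited 1 table of raw counts per gene. Per the submitters' processing notes, tools named for it were FastQC 0.11.9, cutadapt 3.3, HISAT2 2.1.0, SAMtools 1.11, featureCounts 2.0.1 and DESeq2 1.34.0, with builds hg38 and GRCh38.p13. No source used here gives the strand setting or options. Groups came from the sample titles.

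All libraries were fitted together with edgeR 4.0.16 (R 4.3.3, limma 3.58.1) by the quasi-likelihood test with 1 mean per group (14 residual degrees of freedom), TMM scaling (factors 0.8989 to 1.127) and filterByExpr at a minimum count of 10, which took out 44723 genes. P-values were Benjamini-Hochberg adjusted over 16821 genes and called under 0.05. Some fold changes are given with their standard errors. CPM are given per library or as group means, some of them with SD. No 2 libraries of a group had identical counts. The pipeline was tested on simulated data. Genes named beyond the family followed fixed rules: all family rows, tested neighbours within 500 kb of the chromosome 17 cluster, up to 3 genes per pathway list with the largest change that reached 1 CPM, and the 3 genes most like each of the 3 family members with the widest range of passage means (log2 CPM with a prior count of 0.5). From each list, only some of those genes are printed. ABCG1 and NR1H3, named by the rule at P33, are also given with DOX, and NR1H2 was added beside NR1H3. The family and the pathway and marker lists were chosen with earlier results of these data known. Alternatives were DESeq2 1.42.0, RLE scaling, no filter, a filter at 1 CPM, fits on 1 part of the table, a replicate block and leaving out each library. A fit without genes lying inside another gene was added after seeing the data.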

Additional observations from a re-analysis of the deposited data

Results flagged for a closer look

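Of the family, 3 genes were called in opposite directions at P33 against P3 and with DOX, and the difference of the 2 effects passed its own edgeR test. For ABCA2 the P33 call itself did not hold. It was lost with DESeq2 (adjusted p = 0.0509) and with the 1 CPM filter (edgeR adjusted p = 0.143). Leaving out P3 replicate 2, P33 replicate 2 or P33 replicate 3 also ended it. The DOX effect minus the P33 effect (log2) was -2.66 for ABCA6 (edgeR adjusted p = 7.05e-11), -1.84 for ABCA9 (1.56e-08) and 0.58 for ABCA2 (8.11e-06). All 3 DOX libraries lay below all 3 DMSO libraries for ABCA6 and ABCA9 and above them for ABCA2, whereas the P33 libraries lay above all P3 libraries for ABCA6 and ABCA9 and overlapped them for ABCA2. Against P11, the passage of the DOX and DMSO cells, ABCA6 was higher at P33 (log2 0.80, edgeR adjusted p = 0.000714). ABCA9 (-0.26, 0.141) and ABCA2 (0.09, 0.308) were not called against P11. The share of all tested genes without overlap of libraries was not counted. Groups of 3 libraries were not screened for outliers.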

How the results depend on the processing

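Over 90 values (10 genes in 9 comparisons), RLE scaling and the fit without genes inside another gene, added after seeing the data, changed 0 calls. DESeq2 took away 2 calls, no filter took away 4 and added 1, and a filter at 1 CPM took away 2 and added 1. Fits on 1 part of the table, run for 80 values, took away 1 and added 2. Leaving out libraries, over 600 values, took away 48 calls and added 11. The count of genes lower at P33 than at P3, 1, was 0 with DESeq2 and 0 with the 1 CPM filter. That of genes lower at P24 than at P3, 1, was 2 in the fit on the passage libraries alone. Without 1 library each, the count lower at P33 than at P3 ranged from 0 to 1, lower at P24 than at P3 from 0 to 1, higher at P24 than at P11 from 1 to 2 (3 with all libraries), and from P24 to P30 from 2 to 5 higher and 0 to 1 lower. The cause was not tested.

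Uncalled values that changed sign without 1 library were ABCA9 at P24 against P3 (-0.22 to 0.071), ABCA8 at P30 against P3 (-0.104 to 0.13) and ABCA6 at P30 against P24 (-0.121 to 0.31). The replicate numbers did not pair the libraries: the correlation of deviations over 63 same-numbered pairs ran from -0.052 to 0.0594. With the numbers as a replicate block, the counts at P33 against P3 were 8 higher and 1 lower and with DOX 6 higher and 2 lower, and no call changed. Low read counts limit the precision for ABCA13 and for the other genes of few reads.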

Other observations

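The ABCA genes outside the 10 were low. ABCA12, the lipid transporter of the skin barrier, had 0.195, 0.385 and 0.147 CPM at P3 and 0.80, 0.612 and 0.723 CPM at P33 (log2 1.496, edgeR adjusted p = 0.00128), and 0.361, 0.121 and 0.235 CPM with DMSO against 1.21, 0.953 and 1.48 CPM with DOX (log2 2.25, 1.56e-05). Neither pair of groups overlapped. ABCA4, the retinoid transporter of photoreceptors, had 0.975, 0.462 and 0.196 CPM at P3 and 1.05, 1.27 and 1.64 CPM at P33 (log2 1.20, edgeR adjusted p = 0.00301), and its log2 change with DOX was -0.50 (0.14).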
